A study of Mus musculus with 2 samples.

Results

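Pdk4, Angptl4, Cyp4a10, Cyp4a31, Cpt1a, Acot1, Acot2, Ppara and Plin2 are genes of fatty acid use that the nuclear receptor PPAR alpha, or fasting, is known to induce, together with the receptor gene itself. Every probe set whose annotated symbol field held one of these 9 genes, alone or with a paralog, was taken, which gave 17 of the 45101 probe sets on the array. A probe set is a group of short probes against one transcript. The genes were chosen by function and by their difference between the pools on these arrays, so all values below are a description and none is tested.

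The series used small intestine RNA from 2 groups of BALB/c background mice aged 6 to 8 weeks: mice transgenic for interleukin 9 (IL-9), and wild-type mice. Neither group was treated. IL-9 is a type 2 cytokine that drives mast cell growth, and the study concerned mast cells, gut permeability and reactions to food antigen. Each group was 1 Affymetrix MOE430 2 array with the pooled RNA of 3 mice, so the spread between mice is unknown and replicates are lacking throughout. The promoter and cell type that drive the transgene, the sex of the mice and their feeding state at collection are not given in the labels.

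PPAR alpha is a receptor for fatty acids that pairs with RXR and binds DNA at a repeat of AGGTCA elements. In fasting, fatty acids released from fat reach liver, gut and muscle, where PPAR alpha raises the genes for their entry into mitochondria and peroxisomes and for their oxidation. Enterocytes also meet dietary fatty acids at every meal, and the small intestine is among the tissues in which the receptor is abundant.

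The deposited values were intensities on a linear scale after RMA, a method that equalises the distributions of the arrays, and the medians of 78.7 in transgenic intestine and 78.3 in wild-type intestine left no overall shift. Differences were taken on the log2(intensity + 1) scale as transgenic minus wild type, which understates the change of dim probe sets, and folds are on that scale. The expression filter was the median of all log2 values, 6.31, which 23238 probe sets reached on at least one array. Between probe sets of the same gene the log2 difference had an SD of 0.23 over 4965 genes, a technical spread that says nothing of mice. The tissue label was checked on enterocyte markers: 11 of the 12 listed genes were named on the array, all passed the filter, and they read from 6504 to 24147 in transgenic intestine and from 7234 to 25799 in wild-type intestine.

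Of the 17 member probe sets 13 passed the filter, 12 of them in both pools. The remaining 1, for Acot1, passed through the wild-type pool alone, which fixes its direction. Among these 13, 3 were lower by 2-fold in transgenic intestine and 0 were higher by 2-fold, where 0.194% of all probe sets past the filter were lower and 0.512% higher. These 3 read Pdk4, Angptl4 and the pair Cyp4a31 and Cyp4a10. A total of 11 of the 13 lay below 0, against 48.1% of all probe sets past the filter, and their median log2 difference was -0.20, against 0.01 for all. The other 10 lay between -0.67 and 0.55. Of all 13, 6 lay within the SD of 0.23 around 0, 6 lay below 0 by more than that SD and 1 above 0 by more. The Acot1 probe set, with its direction fixed, is among the 11 below 0 and among the 6 below 0 by more than the SD. Ppara and Cpt1a were read by 3 probe sets each, so these counts are not of separate genes. In bulk tissue, fewer cells of a type and less RNA per cell cannot be told apart.

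**Figure D1:**
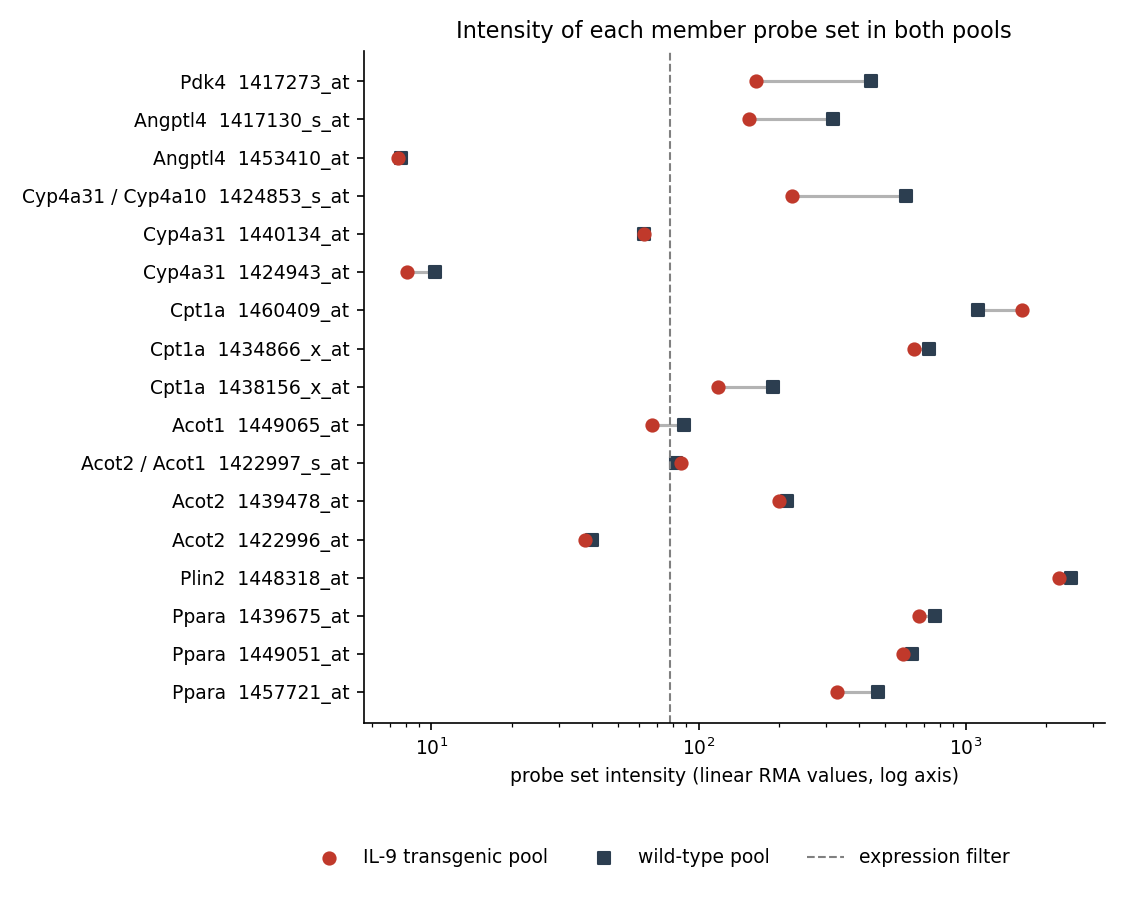
Intensity of each of the 17 member probe sets (rows, with gene and probe set name) on a log axis, as circles for the IL-9 transgenic pool and squares for the wild-type pool, 1 array each; the dashed line is the expression filter at 78.5. The widest gaps are those of Pdk4 (164 transgenic, 441 wild type), the shared Cyp4a31 and Cyp4a10 probe set (224 transgenic, 598 wild type) and Angptl4 (155 transgenic, 319 wild type), while the first Cpt1a row is the only one with the transgenic pool clearly to the right.

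Pdk4 encodes the pyruvate dehydrogenase kinase that fasting induces. By phosphorylating the pyruvate dehydrogenase complex it keeps pyruvate from entering the citric acid cycle, which spares glucose while fat is burned. The one probe set of Pdk4 gave 164 in transgenic intestine and 441 in wild-type intestine, 2.68-fold lower, a log2 difference of -1.42. This was the 10th lowest difference among the 23238 probe sets past the filter. The probe set carries the plain suffix that the array's design gives to probes specific to one transcript.

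Cyp4a10 and Cyp4a31 are cytochromes P450 that add a hydroxyl group to the far end of fatty acids, the first step of omega-oxidation, and Cyp4a10 is a classical PPAR alpha target of mouse liver. The genes are neighbours on chromosome 4, where the Cyp4a14 gene precedes Cyp4a10 and Cyp4a32 follows Cyp4a31. One probe set matched both and read 224 in transgenic intestine against 598 in wild-type intestine, 2.67-fold lower, the 11th lowest difference of all. It was the only probe set of Cyp4a10, so the signal cannot be divided between the genes. Of the probe sets named for Cyp4a31 alone, one read 62.2 in both pools and the other 8.10 in transgenic intestine and 10.3 in wild-type intestine. Both lay under the filter, with log2 differences of 0 and -0.31. Identical values in both pools were found for 1171 probe sets of the array, or 2.60%.

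Angptl4 encodes a secreted inhibitor of lipoprotein lipase, the enzyme that frees fatty acids from circulating triglyceride. It also restrains pancreatic lipase in the gut lumen of mice. Its brighter probe set read 155 in transgenic intestine and 319 in wild-type intestine, 2.05-fold lower (log2 difference -1.04, the 39th lowest). The suffix of this probe set marks probes that can match more than one transcript. The other probe set read 7.47 in transgenic intestine and 7.69 in wild-type intestine, close to the lowest intensities of the arrays, 5.60 on the transgenic and 5.75 on the wild-type one, and gave -0.04. The 2-fold call therefore rests on 1 probe set near the threshold: with a pseudocount of 16 in place of 1 the difference was -0.97.

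**Figure D2:**
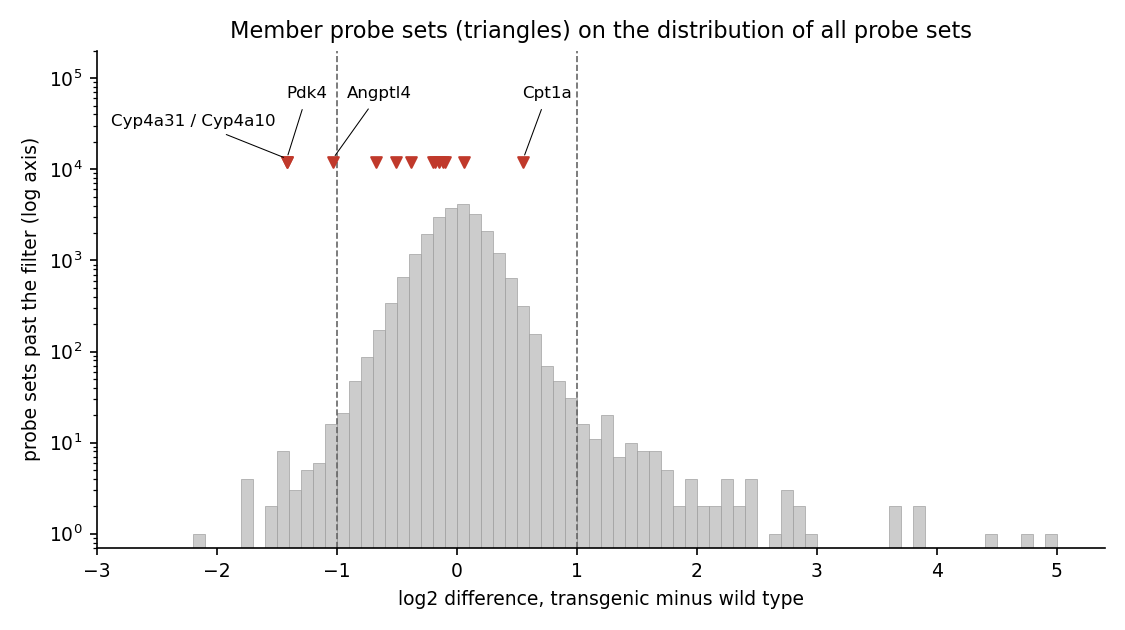
Number of probe sets past the filter (log axis) by log2 difference, transgenic minus wild type, in bins of 0.1 (bars), with the 13 member probe sets past the filter as triangles and dashed lines at 2-fold. Pdk4 (-1.42), the Cyp4a31 and Cyp4a10 probe set (-1.41) and Angptl4 (-1.04) lie in the sparse left tail, and the rightmost triangle is a Cpt1a probe set at 0.55.

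Cpt1a encodes the liver-type carnitine palmitoyltransferase of the outer mitochondrial membrane, which commits long-chain fatty acids to mitochondrial oxidation. Its probe sets disagreed. The brightest read 1630 in transgenic intestine and 1112 in wild-type intestine (log2 difference 0.55), while another read 641 in transgenic and 728 in wild-type intestine (-0.18) and the dimmest 119 in transgenic and 189 in wild-type intestine (-0.67). Of all probe sets past the filter, 95% lay between -0.53 and 0.54. The brightest fell just outside this range, and the dimmest fell further outside it on the opposite side. The mean over all of them was -0.10, and no direction is given for Cpt1a. The probe sets with negative differences carry a suffix that marks probes with possible matches to other sequences.

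Ppara itself, the receptor, was read by 3 probe sets, all past the filter and all below 0. They read 667 in transgenic intestine and 765 in wild-type intestine (-0.20), 582 in transgenic and 631 in wild-type intestine (-0.12), and 329 in transgenic and 469 in wild-type intestine (-0.51). The smaller of these are within the spread of 0.23 between probe sets, and the last lies inside the range that holds 95% of all probe sets. Plin2 encodes perilipin 2, a coat protein of cytosolic lipid droplets that fatty acids and fat feeding also raise in enterocytes. It read 2239 in transgenic intestine and 2482 in wild-type intestine, a log2 difference of -0.15 that is smaller than the spread between probe sets.

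Acot1 and Acot2 encode acyl-CoA thioesterases, in the cytosol and in mitochondria, that split fatty acyl-CoA into free fatty acid and CoA. They are neighbours on chromosome 12. The probe set of Acot1 alone read 67.0 in transgenic intestine and 87.9 in wild-type intestine (-0.39), near the filter. It reached the filter only on the wild-type array, which fixes its direction. The probe set shared by both genes read 85.8 in transgenic intestine and 82.3 in wild-type intestine (0.06). For Acot2 alone, one probe set read 201 in transgenic intestine and 215 in wild-type intestine (-0.10), and another, under the filter, 37.4 in transgenic and 40.0 in wild-type intestine (-0.09). None of these values approached the 2-fold threshold.

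The members of each family can be set beside their paralogs, which share much of their chemistry. Among the pyruvate dehydrogenase kinases, the brightest probe set of Pdk1 differed by 0.03, that of Pdk2 by -0.16 and that of Pdk3 by 0.05, against -1.42 for Pdk4. The other Pdk1 probe sets past the filter gave 0.37 and -0.37. Among angiopoietin-like genes, the values past the filter for Angptl1, Angptl6, Angptl7 and Angptl8 ran from -0.14 to 0.32. The highest, Angptl8, reached the filter only on the transgenic array, which fixes its direction. Cyp4a14, the other strongly PPAR alpha-dependent Cyp4a gene of mouse liver, read 31.0 in transgenic intestine and 28.8 in wild-type intestine, and Cyp4a12a 18.4 in transgenic and 21.0 in wild-type intestine, all under the filter. Plin3 differed by -0.27 and Plin4 by -0.05, beside -0.15 for Plin2. The related receptors PPAR delta (Ppard) and PPAR gamma (Pparg) differed by -0.15 and 0.17. A Ppard probe set shared with 1810013A23Rik gave 0.14. Plin5 lay under the filter. Of the Cpt1a paralogs, Cpt1c lay under the filter and Cpt1b was read only by a probe set shared with Chkb and Gm44502 (0.13). The Acot paralogs from Acot3 to Acot12 gave -0.47 to 0.54 past the filter, the lowest in Acot12 and the highest in a probe set shared by Acot9 and Acot10, and Acot5 lay under it. No paralog named here reached 2-fold. Whether members and paralogs differ was not tested.

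**Figure D3:**
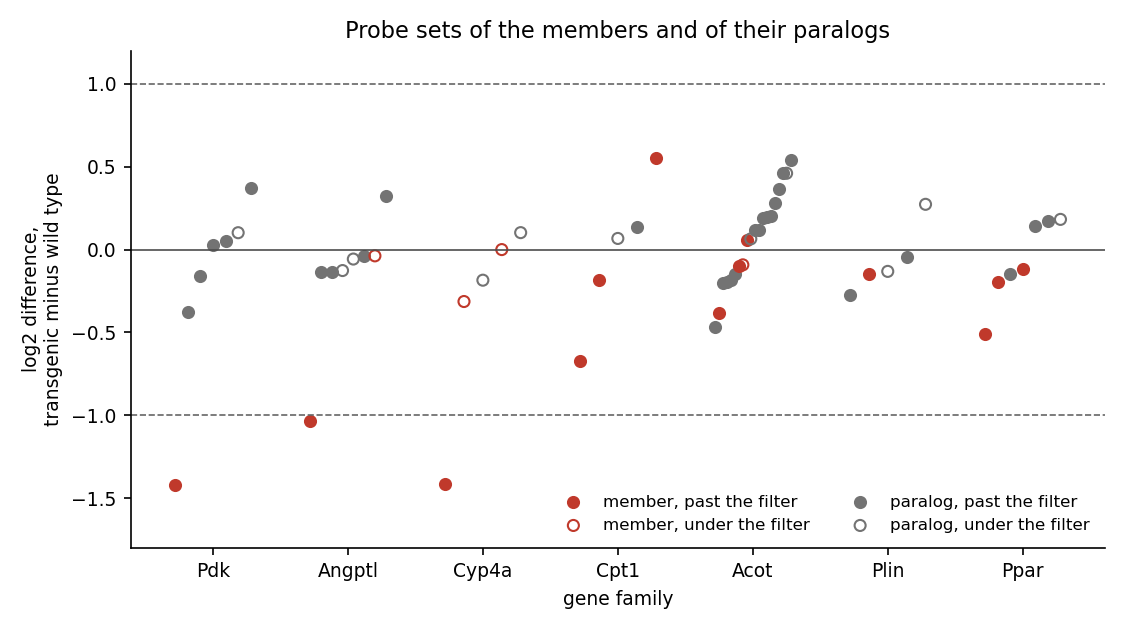
Log2 difference, transgenic minus wild type, of every probe set of the 7 gene families that hold members, each point 1 probe set; red points are members, grey points paralogs, open points lie under the filter, and dashed lines mark 2-fold. The points beyond the lower line are those of Pdk4 (-1.42), Cyp4a31 and Cyp4a10 (-1.41) and Angptl4 (-1.04), and no point lies beyond the upper line.

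Promoter sequences from the RefSeq table of build GRCm38.p6 were matched by symbol for 6 of the 9 members. Angptl4, Cyp4a10 and Cyp4a31 had no entry. The 250 bases before the start site are shown for Pdk4, the member with the lowest value among those matched, and for Cpt1a and Plin2, the 2 matched members whose window holds an AGGTCA element of the kind PPAR and RXR bind in pairs. Capitals mark the AGGTCA element and CCAAT, a common promoter element, on either strand, so that a match on the opposite strand shows as its reverse complement. Pdk4 lies on the minus strand at chr6:5496279-5496528, Cpt1a on the plus strand at chr19:3323051-3323300 and Plin2 on the minus strand at chr4:86670060-86670309.
Pdk4: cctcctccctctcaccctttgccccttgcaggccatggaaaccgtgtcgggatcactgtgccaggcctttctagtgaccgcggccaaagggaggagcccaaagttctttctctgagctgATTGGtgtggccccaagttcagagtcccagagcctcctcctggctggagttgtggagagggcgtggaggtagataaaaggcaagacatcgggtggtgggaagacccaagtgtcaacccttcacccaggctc
Cpt1a: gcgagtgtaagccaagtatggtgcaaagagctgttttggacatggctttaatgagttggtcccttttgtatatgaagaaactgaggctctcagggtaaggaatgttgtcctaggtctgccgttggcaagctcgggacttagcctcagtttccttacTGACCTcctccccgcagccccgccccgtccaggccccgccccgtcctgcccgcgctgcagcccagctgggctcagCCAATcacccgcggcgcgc
Plin2: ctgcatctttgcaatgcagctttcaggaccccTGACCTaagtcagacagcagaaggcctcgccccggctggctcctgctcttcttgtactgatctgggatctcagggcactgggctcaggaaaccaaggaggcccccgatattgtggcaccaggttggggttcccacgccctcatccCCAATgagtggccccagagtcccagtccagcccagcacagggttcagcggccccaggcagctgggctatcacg
Both strands were searched. AGGTCA was found in 2 of the 6 member windows and in 14.0% of 32851 promoter windows of the same length, and in both members it stood on the opposite strand, its first base in the printed line lying 94 bases before the start in Cpt1a and 218 in Plin2. CCAAT was found in 5 of 6 and in 33.8% of all windows, and Ppara was the member without it. Pairs of AGGTCA with 1 base between them were found in 0 of the 6 windows and in 0.0335% of all windows, and a looser pair, with any base at position 4 of each element, which includes the strict one, in 0 of 6 and 0.338%. A match is a description of letters, and the absence of one says nothing about binding outside this window.

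Beyond the 9 members, 174 further genes of fatty acid use and the fasting response were listed in 12 groups, some genes in several. Of these 154 were named on the array and 140 passed the filter, each gene represented by its brightest probe set. Of these 140, 1 (0.714%) was lower by 2-fold and 2 (1.43%) were higher. Among all 11862 genes past the filter the shares were 0.202% and 0.607%. The median log2 difference of the 140 was -0.03, against 0.01 for all genes. Below 0 lay 73 of the 140, where 47.6% of all genes did. Above 0 lay 66 of the 140, where 6095 of all 11862 genes did.

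Oxidation genes past the filter stayed under 2-fold. In mitochondrial beta-oxidation and the carnitine shuttle, 11 of 18 genes past the filter lay above 0, where 6095 of all 11862 genes did. Of these 18, 0 differed by 2-fold either way, and the median was 0.11. The widest values were -0.39 in Slc25a20, the carnitine-acylcarnitine carrier, and 0.35 in Etfdh, which passes electrons from the pathway to ubiquinone. The other probe set of Slc25a20 gave 0.03. In the peroxisomal group 0 of 11 differed by 2-fold, 8 lay below 0 and the median was -0.21. Pex11a, a peroxisome division factor and PPAR alpha target, read 601 in transgenic intestine and 991 in wild-type intestine (-0.72), and its other probe set gave -0.34. Acaa1b, a peroxisomal thiolase, differed by -0.60. Ehhadh, the bifunctional enzyme of the same pathway and a PPAR alpha target of liver, differed by 0.21. In the omega-oxidation group 0 of 5 differed by 2-fold, and the widest values were -0.45 in Cyp4v3 and -0.35 in Cyp4b1. Among the other acyl-CoA thioesterases 0 of 9 did, with 0.46 in Acot13 and 0.36 in Acot9.

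Ketone body genes lay above 0. All 4 genes of this group past the filter did so, 1 of them by 2-fold, where 6095 of all 11862 genes lay above 0. Oxct1, the enzyme that lets tissues burn ketone bodies, read 3345 in transgenic intestine and 1474 in wild-type intestine, 2.27-fold higher, and its 4 probe sets ran from 0.53 to 1.18. Bdh1, Acat1 and Slc16a1, which interconvert or carry ketone bodies, differed by 0.20, 0.26 and 0.37. The hormone Fgf21, a PPAR alpha target of fasted mouse liver, read 57.6 in transgenic intestine and 62.3 in wild-type intestine, under the filter.

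The complex that Pdk4 restrains was read by several genes with values above 0. In the pyruvate dehydrogenase group 0 of 10 genes past the filter differed by 2-fold, and the median was 0.26. Of these 10, 8 lay above 0, where 6095 of all 11862 genes past the filter did. The subunit genes Pdha1, Pdhb, Dlat, Dld and Pdhx differed by 0.32, 0.20, 0.50, 0.40 and 0.35. Mpc1, a subunit of the mitochondrial pyruvate carrier, read 3018 in transgenic intestine and 1716 in wild-type intestine (0.81), while Pdp2, a phosphatase that reverses the action of the kinases, read 241 in transgenic and 370 in wild-type intestine (-0.62). Each of these is under 2-fold.

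**Figure D4:**
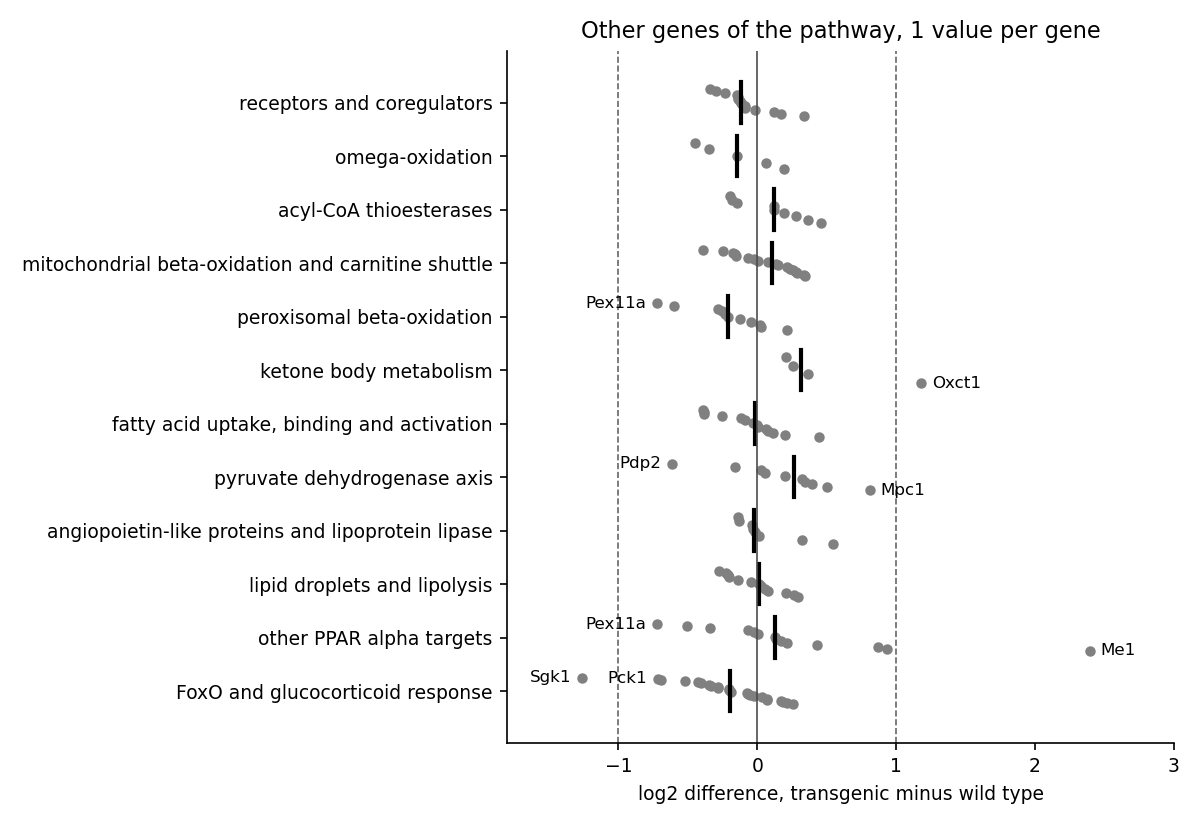
Log2 difference, transgenic minus wild type, of the genes past the filter in 12 groups of the pathway other than the members; each point is 1 gene by its brightest probe set, black bars are group medians and dashed lines mark 2-fold. Sgk1 (-1.26) lies beyond the lower line, Oxct1 (1.18) and Me1 (2.40) lie beyond the upper one, and the ketone body and pyruvate dehydrogenase groups have the highest medians, 0.31 and 0.26.

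Genes of fatty acid uptake, storage and lipoprotein lipase had medians near 0, at -0.02 over 14 genes for uptake, binding and activation, 0.01 over 13 for lipid droplets and lipolysis and -0.03 over 8 for angiopoietin-like proteins and the lipase, with 0 genes past 2-fold in each. Lpl, the lipase that Angptl4 inhibits, read 486 in transgenic intestine and 332 in wild-type intestine (0.55), and both of its probe sets gave 0.55. Angptl8, a partner of this family, differed by 0.32, but it reached the filter only on the transgenic array, which fixes its direction. The uptake group ran from -0.39 in Slc27a4, a fatty acid transport protein, to 0.44 in Fabp4, a fatty acid-binding protein of adipocytes and endothelium. The other probe set of Fabp4 past the filter gave 0.07. Among lipid droplet genes the widest were 0.29 in Abhd5, whose other probe set past the filter gave -0.08, and -0.27 in Plin3. In the group of receptors and coregulators 0 of 15 differed by 2-fold, with -0.34 in Rxra, a partner receptor, and 0.34 in Lpin2, a lipid phosphatase. The other probe set of Rxra past the filter gave 0.15, and the 4 probe sets of Lpin2 ran from -0.01 to 0.55.

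In a group of further PPAR alpha targets, 1 of 14 genes past the filter was higher by 2-fold and 0 were lower, with a median of 0.13. This was Me1, the cytosolic malic enzyme that supplies NADPH, which read 2016 in transgenic intestine and 382 in wild-type intestine (2.40), opposite in sign to Pdk4. In the group of FoxO and glucocorticoid response genes, which shares regulators with Pdk4 and Angptl4, 1 of 24 was lower by 2-fold, 0 were higher, 17 lay below 0 and the median was -0.19. That gene was Sgk1, a kinase of epithelial salt transport, at 634 in transgenic intestine and 1522 in wild-type intestine (-1.26). Among the 17 below 0, Zbtb16 (72.3 in transgenic and 88.1 in wild-type intestine) reached the filter only on the wild-type array, which fixes its direction. Fkbp5 and Per1, genes that glucocorticoids induce in many cells, differed by 0.26 and 0.04, and Tsc22d3, a further one, by -0.52.

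The levels of cell type markers were read beside the members, since fat, liver and muscle express several of them. In the adipocyte list 8 of 9 markers past the filter lay above 0, where 6095 of all 11862 genes did, and Lipe gave -0.14. In this list 2 were higher by 2-fold. Of these, adiponectin (Adipoq) reached the filter only on the transgenic array, which fixes its direction. The other, Car3, read 263 in transgenic intestine and 84.3 in wild-type intestine (1.63). The summed intensities of the list were 3132 in transgenic intestine and 2454 in wild-type intestine. The hepatocyte list summed to 920 in transgenic intestine and 714 in wild-type intestine. Of its 5 markers past the filter 2 were higher by 2-fold, Apoh (1.23) and Cyp2e1. Apoh read 233 in transgenic intestine and 98.6 in wild-type intestine. Cyp2e1 read 106 in transgenic intestine and 37.0 in wild-type intestine and reached the filter only in the first, which fixes its direction. The other 3, Apoa2, Ttr and Tat, differed by -0.18, -0.06 and 0.08. Albumin (Alb) was under the filter at 75.3 in transgenic and 63.6 in wild-type intestine. The striated muscle list summed to 1401 in transgenic intestine and 936 in wild-type intestine. Of its 4 markers past the filter 1 was higher by 2-fold, Actc1 (1.41), at 701 in transgenic intestine and 264 in wild-type intestine. The other 3, Ckm, Acta1 and Tnni2, differed by 0.04, 0.14 and -0.02, and 6 lay under the filter. The exocrine pancreas list summed to 15270 in transgenic intestine and 4553 in wild-type intestine. Of its 6 markers past the filter 3 were higher by 2-fold, the lipase-related genes Pnliprp1 (2.44) and Pnliprp2 (2.28) and colipase, Clps (1.51). The other 3 lay between -0.08 and -0.05. Most of both sums came from Pnliprp2 (8180 transgenic, 1682 wild type) and Clps (5963 transgenic, 2099 wild type). Cpa1, Cpb1, Cela2a and Cel lay under the filter. The enterocyte list summed to 139476 in transgenic intestine and 148284 in wild-type intestine, with 0 of 11 past 2-fold, and 0 markers passed 2-fold among the 8 smooth muscle, 8 macrophage and 2 brown adipocyte markers past the filter. In the B cell list 3 of 5 were lower by 2-fold, with sums of 693 in transgenic intestine and 1261 in wild-type intestine. Of these 3, Ms4a1 and Cr2 reached the filter only on the wild-type array, which fixes their direction. The other, Fcmr, reached it on both, at 97.2 in transgenic intestine and 254 in wild-type intestine (-1.38). In the mast cell list 4 of 7 were higher by 2-fold, with sums of 5786 in transgenic and 1211 in wild-type intestine. Of these 4, Cpa3 and Fcer1a reached the filter only on the transgenic array, which likewise fixes their direction. Mcpt1 (2.77) and Mcpt2 (2.89) reached it on both and made up most of both sums. The remaining markers past the filter, Kit, Cma1 and Hdc, differed by 0.71, 0.18 and -0.19, and Mcpt4 and Tpsb2 lay under the filter. No marker in any list was at 0. The part of the tissue make-up in the values of Pdk4, Angptl4 and the Cyp4a pair was not tested.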

How the data were processed

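The authors deposited 1 intensity per probe set and array. The submitters' processing notes name RMA and no version, and the linear scale was read from the values, which run from 5.60 to 25799. The labels' protocols give 10 µg of total RNA for labelling. Which chip annotation and genome build the submitters used is not stated in the labels or the table. Gene names came from a platform annotation table: 34958 probe sets had 1 symbol, 932 several and 9211 none, and the Entrez identifiers of all 9 members were found in the RefSeq table. From the intensities, log2(intensity + 1) values, differences, the filter and counts past 2-fold were computed with Python 3.11.15, pandas 2.3.3 and numpy 2.4.6, and the computation was tested on simulated data. With 1 array per group no test was made, and no likeness of pattern can be computed from 2 arrays. The number of arrays limits the precision. Members and lists were chosen with earlier results of these data known. Named were all members, their paralogs, and of each list the genes past 2-fold or the 2 widest. Cell type lists were summed, with single markers named where they passed 2-fold or define the type. Lipe and the remaining hepatocyte, striated muscle and mast cell markers past the filter were named with their values in view. So were Zbtb16 and the markers under the filter in the mast cell and exocrine pancreas lists. Ehhadh, the remaining ketone body and pyruvate dehydrogenase genes, Fkbp5, Per1, Tsc22d3 and the closing genes were picked with their values in view. Listed genes with no probe set of their own name were not analysed here. Alternatives changed the pseudocount, filter, normalization, probe sets, gene summary and size of change.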

Additional observations from a re-analysis of the deposited data

How the results depend on the processing

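The 3 member probe sets lower by 2-fold in transgenic intestine were 1 when probe sets with possible matches to further transcripts were left out, which leaves Pdk4 alone, and 0 at a 3-fold threshold. Under the other settings the count ran from 2 to 4. The 0 higher probe sets stayed at 0 under each setting run. The median of the members lay between -0.33 and -0.17 over all settings. Among single genes, Angptl4 moved to -0.04 and Cyp4a31 to 0 with those probe sets left out, and Cpt1a to -0.10 as the mean over its probe sets, and the other 50 values moved by less than the SD of 0.23. Cyp4a10 has no value without shared probe sets. No paired analysis was possible because each group is 1 array. Dim probe sets carry background signal that shrinks differences, so values under the filter show little.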

Other observations

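Pck1 and G6pc, which encode the fasting-induced enzymes of glucose production, were both lower without reaching 2-fold. Pck1 read 1084 in transgenic intestine and 1782 in wild-type intestine (log2 difference -0.72), and its other probe set past the filter gave -0.57. G6pc read 404 in transgenic intestine and 653 in wild-type intestine (-0.69). Scd1, a desaturase of lipid synthesis, read 373 in transgenic intestine and 194 in wild-type intestine (0.94), and Aqp7, a glycerol channel, 352 in transgenic and 192 in wild-type intestine (0.87), with its other probe set at 0.21. Cd36, a fatty acid receptor and transporter, had 3 probe sets past the filter, which lay between -0.77 and -0.39, and Vnn1, a PPAR alpha target of mouse liver, had 2, at -0.34 and -0.74. Retsat, a further target, read 2018 in transgenic intestine and 2870 in wild-type intestine (-0.51). These genes were picked for their values, each is a single comparison of pools, and none has a replicate check.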
